A study of Mus musculus with 31 samples.

Results

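The immediate early genes Fos, Fosb, Junb, Npas4, Egr1, Egr2, Egr4, Nr4a1, Ier2 and Arc were followed in RNA of the mouse hippocampus. These 10 genes were taken by symbol from a table of 15648 genes, in which each of the symbols stood on 1 gene. The lowest count of any of them in any mouse was 27, so all 10 passed the filter on low counts.

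The 31 animals were adult OT-I/Rag-/- mice, whose CD8+ T cells carry a receptor for a peptide of ovalbumin (OVA) and which, lacking Rag1, have no other mature T cells and no B cells. They received either rAAV-hSyn-OVA-mCherry (rAAV-OVA) or rAAV-hSyn-mCherry (rAAV-control) in hippocampal CA1, and the synapsin promoter of both vectors drives expression in neurons. Both groups therefore carried a vector and mCherry, and they differed in OVA. The left hippocampus was taken at 2, 5, 8 or 28 d from 4 mice per vector, except for 3 rAAV-control mice at 8 d. Library totals ran from 19046977 to 57407902 counts. The labels put 23 mice in batch 1 and 8 in batch 2. The latter were 2 mice of each vector at 2 d and again at 28 d, and the sources used here do not say what was shared within a batch. Values are CPM (counts scaled to a common library total) after TMM normalization, and in whole tissue fewer cells of a type and less RNA per cell cannot be told apart.

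Immediate early genes are transcribed within minutes of a stimulus, without new protein synthesis. In neurons the stimulus is calcium entry during firing, and kinases then act on factors such as CREB and SRF that already sit on their promoters. Fos, Fosb and Junb encode subunits of the AP-1 transcription factor, and Npas4 encodes a neuronal bHLH-PAS factor that responds to calcium. Egr1, Egr2 and Egr4 are zinc finger factors, Nr4a1 is an orphan nuclear receptor, and Ier2 encodes a nuclear protein of the early response. Arc differs from the others in that its protein acts at synapses, where it promotes removal of AMPA receptors. Most of these genes can also be induced in glia and lymphocytes, for example by receptor signalling in T cells. The count of Fosb is over the gene and does not separate full-length FosB from the truncated form.

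The 250 bases before the transcription start are shown for the genes that rose at 5 d (Fos, Fosb and Npas4) and for Egr4, which did not pass the test at that time. Capitals mark the core of the cyclic AMP response element (TGACGT on either strand) and the EGR site (GCGNGGGCG on either strand). The sequences are those of RefSeq on GRCm38.p6, chr12:85473640-85473889 on the plus strand for Fos, and on the minus strand chr7:19310046-19310295 for Fosb, chr19:4989972-4990221 for Npas4 and chr6:85513590-85513839 for Egr4.
Fos: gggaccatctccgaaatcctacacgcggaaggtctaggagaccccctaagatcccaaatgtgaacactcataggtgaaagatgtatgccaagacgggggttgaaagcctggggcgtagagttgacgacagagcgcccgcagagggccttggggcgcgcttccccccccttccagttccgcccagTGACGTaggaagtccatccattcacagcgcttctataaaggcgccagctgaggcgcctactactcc
Fosb: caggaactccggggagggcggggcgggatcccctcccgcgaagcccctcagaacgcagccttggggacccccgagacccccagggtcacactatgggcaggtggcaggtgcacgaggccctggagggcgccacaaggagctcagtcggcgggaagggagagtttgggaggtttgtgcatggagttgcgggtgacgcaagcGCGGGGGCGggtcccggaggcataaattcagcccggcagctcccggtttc
Npas4: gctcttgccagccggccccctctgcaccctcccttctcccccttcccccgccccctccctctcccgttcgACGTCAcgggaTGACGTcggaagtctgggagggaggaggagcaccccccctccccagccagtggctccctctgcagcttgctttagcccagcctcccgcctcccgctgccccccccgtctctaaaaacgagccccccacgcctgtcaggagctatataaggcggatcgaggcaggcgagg
Egr4: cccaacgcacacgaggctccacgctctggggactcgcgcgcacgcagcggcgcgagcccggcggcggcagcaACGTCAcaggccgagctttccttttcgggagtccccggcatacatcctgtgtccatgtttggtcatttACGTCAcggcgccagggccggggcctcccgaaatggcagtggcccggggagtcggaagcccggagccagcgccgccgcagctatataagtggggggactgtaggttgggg
Promoters of 7 of the 10 genes were searched, and those of Egr1, Arc and Ier2 were not used, so nothing is said of sites in these. The response element core stood 66 to 61 bases before the start of Fos. Npas4 held it at 180 to 175 and at 169 to 164 bases, and Egr4 at 178 to 173 and at 110 to 105 bases. At least 1 of the 5 listed promoters of Egr2 held it too, so that 4 of the 7 genes had the core. Among all 32851 promoters, counted singly and not by gene, 6.47% held it, so the shares are in different units. The EGR site was found in Fosb, 50 to 42 bases before the start, and in Nr4a1, against 4.70% of all promoters. The CArG box, to which SRF binds, was found in promoters of Egr2 alone among the 7 genes, against 1.47% of all promoters. The AP-1 site (TGANTCA) was found in none of them, and 6.75% of all promoters held it. Genes with the core were thus found both among those that rose at 5 d and among those that did not pass the test, and a match is a description of letters only.

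Per kilobase of exon, Arc had the highest level of the 10 genes in the 15 rAAV-control mice, at 63.9 ± 18.5 CPM per kb (SD, n = 15). Egr1 (35.7 ± 10.2), Junb (31.7 ± 6.64) and Nr4a1 (26.1 ± 7.34 CPM per kb) followed, and the differences between neighbours among these 3 were smaller than their SD. Egr4 stood at 13.1 ± 3.13 CPM per kb and Fos at 10.4 ± 3.44 CPM per kb, also within their SD. Fosb, Ier2 and Npas4 lay between 3.48 and 3.63 CPM per kb, and Egr2 was lowest with 1.38 ± 0.589 CPM per kb. In rAAV-control mice 0 of the 10 genes differed between 28 and 2 d in edgeR, and 0 had an unadjusted p under 0.05 (13.6% of all genes). DESeq2 and limma voom also called 0, and across all genes 2.96% were called in this comparison.

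**Figure D1:**
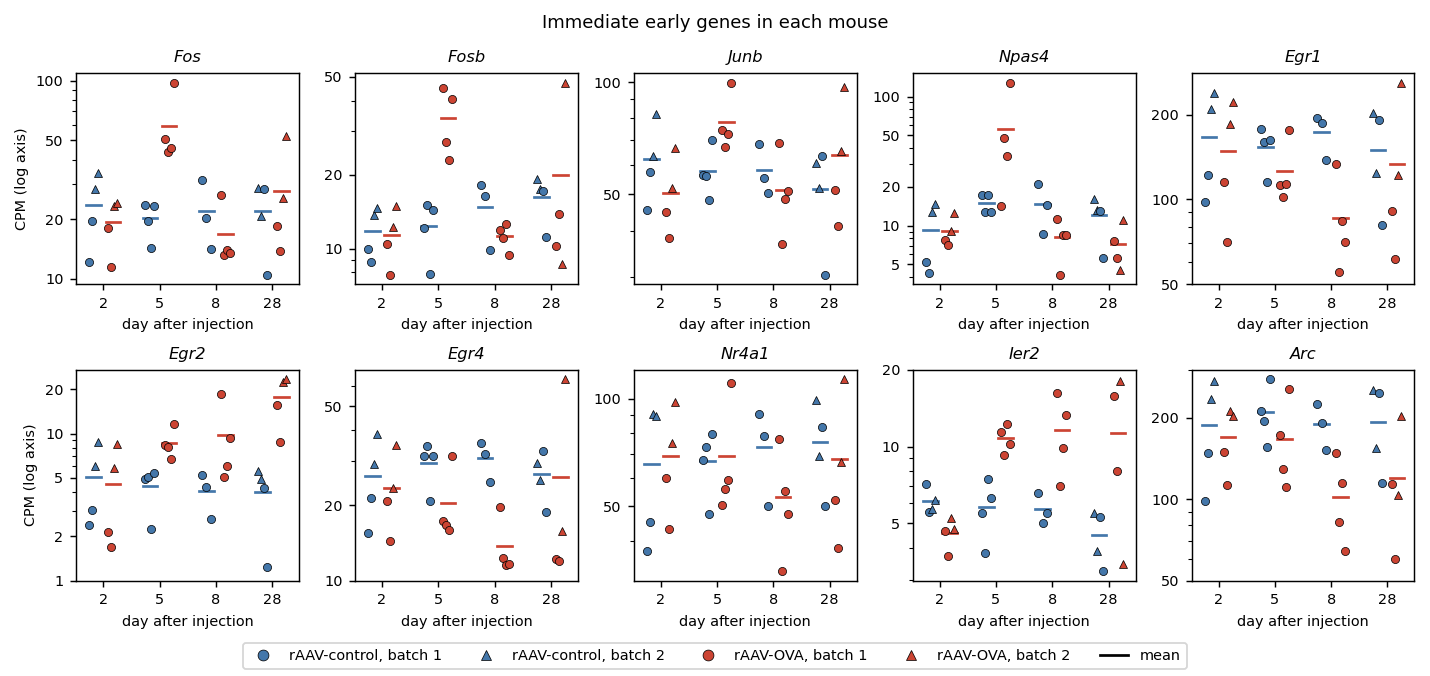
CPM (log axis) of the 10 genes in each of 31 mice against the day after injection. Blue is rAAV-control and red rAAV-OVA, circles are batch 1 and triangles batch 2, and short lines are group means. Fos, Fosb, Egr2 and Ier2 stand above all controls of the same day at 5 d, Ier2 does so at 8 d and Egr2 at 28 d.

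At 2 d none of the 10 genes differed between rAAV-OVA and rAAV-control. A gene was called at an FDR of at most 0.05 with an absolute Log2FC of at least 0.66, where Log2FC is log2 of rAAV-OVA over rAAV-control. edgeR called 0 of 10, as did DESeq2 and limma voom, and 0 of 10 had an unadjusted p under 0.05 (9.13% of all genes). Across all genes 0% were called at this time. Ier2 read 4.68, 3.75, 5.23 and 4.74 CPM in rAAV-OVA and 7.12, 5.52, 5.69 and 6.18 CPM in rAAV-control. It was the only member whose groups did not overlap, all 4 rAAV-OVA mice being lower (Log2FC -0.43 ± 0.32 SE, FDR 0.742). Across all genes 1.94% were lower and 2.22% were higher without overlap.

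At 2 d the levels of most members separated by batch, in both arms. Egr1 measured 115, 70.6, 98.1 and 122 CPM in the 4 mice of batch 1 and 186, 222, 209 and 239.5 CPM in those of batch 2. All batch 2 mice were above all batch 1 mice, with similar means for rAAV-OVA (204 CPM) and rAAV-control (224 CPM) in batch 2. Egr2 was 2.16, 1.68, 2.39 and 3.02 CPM in batch 1, and 5.82, 8.55, 5.98 and 8.78 CPM in batch 2. The batches separated in this way for 8 of the 10 genes, the exceptions being Junb and Ier2, while 12.8% of all genes were higher in batch 2 without overlap. In an edgeR fit with a mean for each vector, day and batch, Egr2 (Log2FC 1.67 ± 0.39 SE, FDR 0.00412), Egr1 (1.08 ± 0.30, FDR 0.0127) and Nr4a1 (0.93 ± 0.28, FDR 0.0220) were called higher in batch 2. These are 3 of 10 genes, against 0.422% of all genes. Fos was higher by 0.83 ± 0.34 (FDR 0.0931) and Arc by 0.85 ± 0.32 (FDR 0.0610) without passing, and Ier2 gave 0.08 ± 0.35. At 28 d 9 of the 10 genes had a positive batch difference with a median of 0.73, where 51.5% of all genes were above 0 with a median of 0.01. An unadjusted p under 0.05 was found for 7 members in edgeR, and nothing is read from this count because no share of all genes is given for it. The same edgeR test called 0 of the 10 genes, and 0.0767% of all genes. This comparison was added after the values had been seen, no other tool was run on it, and what the batches stand for was not tested.

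**Figure D2:**
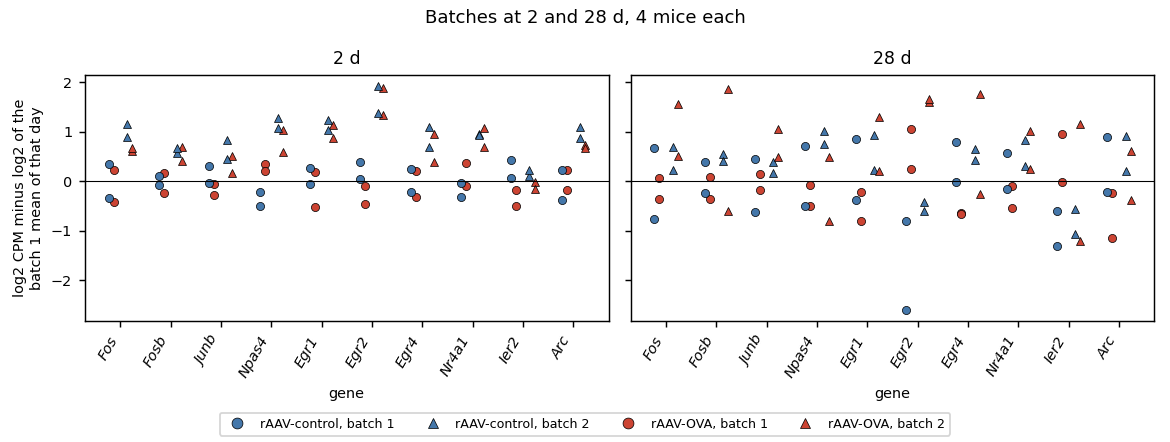
Log2 CPM of each mouse minus the log2 of the batch 1 mean of that day, for the 10 genes at 2 d and 28 d. Colours give the vector and symbols the batch. At 2 d the triangles of 8 genes lie above all circles, and those of Junb and Ier2 do not.

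At 5 d Fos, Fosb and Npas4 rose in rAAV-OVA, while Arc, Egr1, Egr4 and Nr4a1 did not pass the test. The 3 called genes compare with 9.56% of all genes called higher at this time, and 0 members were called lower, against 4.67% of all genes. Over the 10 genes the median Log2FC was 0.59, and over all genes it was -0.01. With the batch label as covariate, or with only the mice of the day, 5 genes were called higher, Egr2 (0.98 and 1.00) and Ier2 (0.90 and 0.93) being added. No share of all genes is given for these fits.

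Fos measured 50.6, 43.7, 45.7 and 97.6 CPM in rAAV-OVA and 23.7, 19.5, 14.3 and 23.4 CPM in rAAV-control. The groups did not overlap, and mouse 4 of rAAV-OVA stood far above the others (Log2FC 1.76 ± 0.36 SE, FDR 0.000760). Fosb was 44.9, 27.3, 22.9 and 40.6 CPM against 12.1, 14.98, 7.87 and 14.4 CPM. Its groups did not overlap either, and here mouse 1 was the highest (Log2FC 1.78 ± 0.33, FDR 0.000397). Npas4 was 14.2, 47.5, 34.6 and 127.7 CPM in rAAV-OVA and 17.4, 12.6, 17.1 and 12.7 CPM in rAAV-control. Mouse 1 lay within the range of the controls while the other 3 were higher, mouse 4 by the most (Log2FC 2.01 ± 0.51, FDR 0.00536). The 3 calls held when any of the 8 mice was left out, with Log2FC from 1.49 to 1.98 for Fos, 1.66 to 2.07 for Fosb and 1.33 to 2.35 for Npas4, the lowest for Npas4 being without mouse 4 of rAAV-OVA.

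Egr2 and Ier2 were higher in every rAAV-OVA mouse at 5 d without passing the test. Egr2 ran from 6.67 to 11.6 CPM against 2.26 to 5.38 CPM (Log2FC 0.96 ± 0.42, FDR 0.0854). Ier2 ran from 9.30 to 12.3 CPM against 3.84 to 7.49 CPM (0.65 ± 0.34, FDR 0.151), and without surrogate variables its difference was called (0.90 ± 0.32, FDR 0.0314). Junb overlapped through the highest control, at 67.0 to 99.7 CPM against 48.5 to 69.8 CPM (0.52 ± 0.22, FDR 0.0823). In all, 4 of the 10 genes were higher without overlap, against 21% of all genes, and 0 were lower, against 19.6%.

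The synaptic gene Arc measured 172, 129, 111 and 255 CPM in rAAV-OVA and 212, 194, 156 and 279 CPM in rAAV-control, with overlapping groups (Log2FC -0.16 ± 0.31, FDR 0.735). Egr1 was 113, 102, 113 and 176 CPM against 178, 159.8, 116 and 162.5 CPM (-0.13 ± 0.31, FDR 0.793). Egr4 was 17.4, 16.8, 15.96 and 31.7 CPM against 31.5, 34.5, 20.9 and 31.6 CPM (-0.24 ± 0.34, FDR 0.631). In each of these genes 3 rAAV-OVA mice lay below at least 3 of the 4 controls, and mouse 4 was the highest of its group. Nr4a1 ran from 50.3 to 110.5 CPM in rAAV-OVA and from 47.5 to 79.6 CPM in rAAV-control (0.19 ± 0.29, FDR 0.669).

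**Figure D3:**
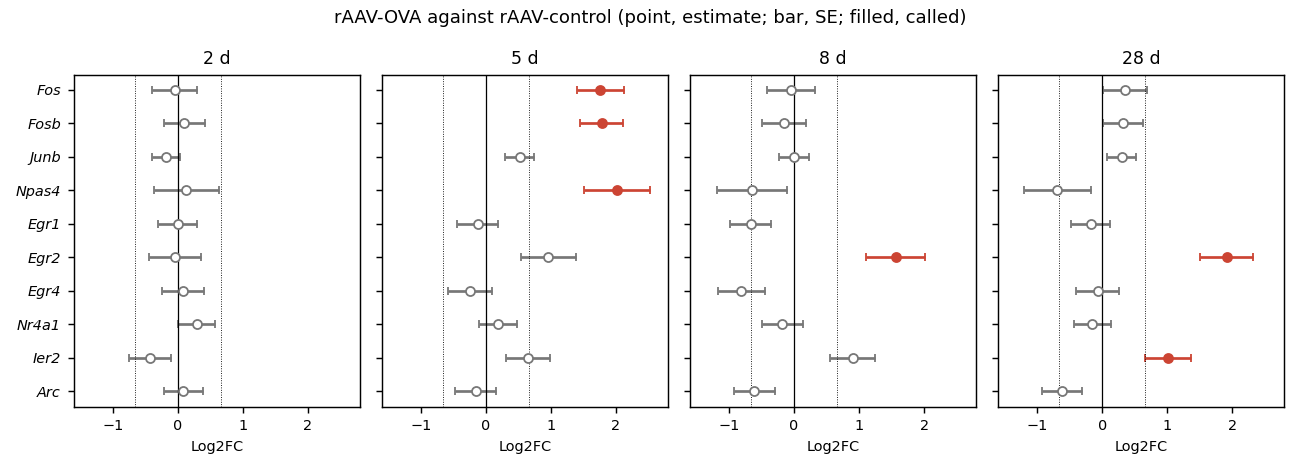
Log2FC of rAAV-OVA over rAAV-control at each day for the 10 genes, with bars of 1 SE. Filled red points were called, and dotted lines mark the limit of 0.66 in either direction. The called genes are Fos, Fosb and Npas4 at 5 d, Egr2 at 8 d, and Egr2 and Ier2 at 28 d.

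The unequal levels at 5 d are described by taking each gene relative to Fos in the same mouse. Fos was chosen with its rise known, so the ratios restate the same 8 mice and are no separate evidence. Relative to Fos, Egr4 fell by 2.02 ± 0.42 on the log2 scale (SE), Arc fell by 1.89 ± 0.42 and Egr1 fell by 1.83 ± 0.42. For Egr1 the log2 ratio to Fos lay between 0.85 and 1.31 in the rAAV-OVA mice and between 2.79 and 3.03 in the rAAV-control mice. Nr4a1 fell by 1.57 ± 0.41, Junb fell by 1.17 ± 0.41 and Ier2 fell by 1.00 ± 0.44. The groups did not overlap for Egr4, Arc, Egr1, Nr4a1 and Junb. Fosb (0.02 ± 0.42), Npas4 (-0.06 ± 0.43) and Egr2 (-0.77 ± 0.45) were not called by limma. A gene that stays level also falls relative to Fos. Of all genes 91.0% were called, so nothing is read from the 6 of 9 members called. Without moderation of the variances, 6 of 9 were again called, with Egr2 in place of Ier2, against 88.9% of all genes. With Arc as the reference, 8.12% of all genes were called and among the members only Fos (1.89 ± 0.37), Fosb (1.91 ± 0.38) and Npas4 (1.83 ± 0.39).

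**Figure D4:**
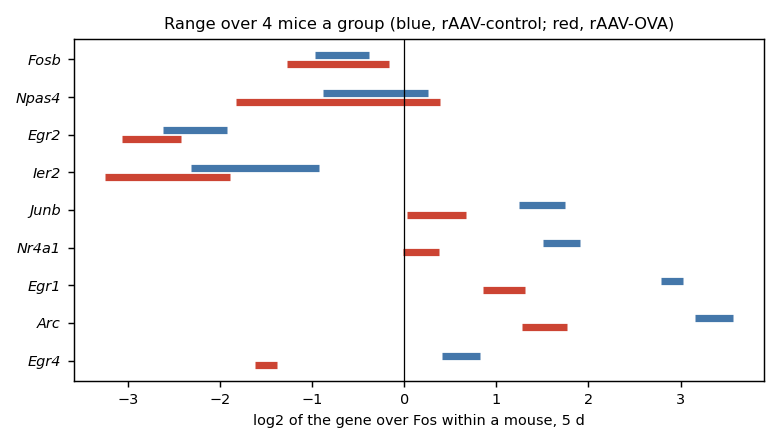
Log2 of each gene over Fos within a mouse at 5 d. Bars span the lowest to the highest of 4 mice, blue for rAAV-control and red for rAAV-OVA. The bars of Junb, Nr4a1, Egr1, Arc and Egr4 do not overlap, and those of Fosb, Npas4, Egr2 and Ier2 do.

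The responses of Fos and Fosb at 5 d were larger than those at 2 d, tested as interactions (Fos 1.82 ± 0.48, FDR 0.0102, and Fosb 1.68 ± 0.45, FDR 0.0107). These were 2 of 10 genes, against 9.98% of all genes, and Npas4 gave 1.87 ± 0.70 (FDR 0.0594). Against 28 d the response of Npas4 was larger at 5 d by 2.70 ± 0.68 (FDR 0.0163) and that of Fosb by 1.47 ± 0.44 (FDR 0.0380), again 2 of 10 genes, against 2.32% of all genes. Fos gave 1.42 ± 0.47 (FDR 0.0548). All mice of 5 d were of batch 1, and those of 28 d came from both batches. The count was 0 among batch 1 mice only and 1 with the batch label as covariate, with limma voom or without surrogate variables. It was 0 without mouse 2 of rAAV-control at 28 d. It was 1 without mouse 1, 2 or 4 of rAAV-OVA or mouse 4 of rAAV-control at 5 d, and without mouse 1 or 2 of rAAV-OVA or mouse 1 of rAAV-control at 28 d. Against 8 d the differences were 1.81 ± 0.49 for Fos (FDR 0.196), 1.93 ± 0.47 for Fosb (FDR 0.132) and 2.66 ± 0.71 for Npas4 (FDR 0.196). edgeR called 0 of 10 here and 0.179% of all genes, with 3 members at an unadjusted p under 0.05 (7.29% of all genes), whereas DESeq2 called 3 and limma voom 0. The share of all genes that DESeq2 called is not given, so nothing is read from its count.

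At 8 d the levels of Fos and Fosb in rAAV-OVA were within or below the range of rAAV-control, and Egr2 was the gene that rose. Fos measured 26.6, 13.2, 14.1 and 13.4 CPM in rAAV-OVA and 31.5, 20.3 and 14.2 CPM in rAAV-control (Log2FC -0.05 ± 0.37). Egr2 was 18.6, 5.08, 5.99 and 9.34 CPM against 5.22, 4.30 and 2.63 CPM (1.56 ± 0.45, FDR 0.0191). It overlapped the controls in mouse 2 of rAAV-OVA, and the call was lost without surrogate variables (1.27 ± 0.56, FDR 0.129), without mouse 1 of rAAV-OVA (1.23) and without mouse 2 (1.50) or mouse 3 (1.24) of rAAV-control. It was 1 of 10 genes called higher, against 9.36% of all genes, and 0 were called lower, against 0.588%. Mouse 1 of rAAV-OVA, the highest in Egr2, also had the highest sums of microglia (2125 CPM), monocyte (1861 CPM) and T cell markers (629 CPM) at 8 d, the other 3 lying at 1321 to 1587, 428 to 1447 and 196 to 445 CPM. Mouse 2 of rAAV-control stood apart from the other controls with 1719, 236 and 47.7 CPM, against 464 and 682.9, 25.1 and 39.2, and 5.3 and 4.8 CPM. The part of these cells in Egr2 was not tested.

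Egr1, Egr4 and Arc were lower in all 4 rAAV-OVA mice at 8 d, and these differences did not pass the test. Egr4 measured 19.7, 12.3, 11.5 and 11.7 CPM against 35.4, 32.3 and 24.9 CPM (Log2FC -0.81 ± 0.36, FDR 0.114). Egr1 was 134, 55.3, 84.0 and 70.6 CPM against 194, 187 and 138 CPM (-0.67 ± 0.32, FDR 0.140). Arc was 147.7, 82.6, 114 and 64.6 CPM against 224, 191 and 152 CPM (-0.61 ± 0.32, FDR 0.181). These are 3 of 10 genes lower without overlap, against 11.9% of all genes. Among batch 1 mice alone, which include all mice of this day, Egr4 (-1.16, FDR 0.00683) and Egr1 (-1.02, FDR 0.0256) were called. Ier2 was higher without overlap, at 7.04 to 16.1 CPM against 5.02 to 6.56 CPM (0.90 ± 0.35, FDR 0.0753), against 14.4% of all genes higher without overlap. The second surrogate variable went with the members within groups (r from -0.64 for Egr1 to -0.28 for Npas4, and 0.26 for Ier2, over 31 mice).

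At 28 d Egr2 and Ier2 were called higher in rAAV-OVA. Egr2 measured 15.6, 8.81, 22.6 and 23.5 CPM against 5.58, 4.93, 4.28 and 1.24 CPM. The groups did not overlap (Log2FC 1.91 ± 0.41, FDR 0.00146), the within-batch differences in log2 CPM were 2.30 in batch 1 and 2.12 in batch 2, and the call held when any of the 8 mice was left out (1.58 to 2.36). Ier2 was 15.7, 8.03, 17.99 and 3.48 CPM against 5.50, 3.89, 5.31 and 3.25 CPM. Mouse 4 of rAAV-OVA lay within the controls and the other 3 above them (1.01 ± 0.35, FDR 0.0307). The call of Ier2 was lost without mouse 1 of rAAV-OVA (0.89) and without mouse 2 (0.74) or mouse 4 (0.85) of rAAV-control, and the difference was 1.70 without mouse 4 of rAAV-OVA. It was also lost with limma voom (0.82, FDR 0.0821), with only the mice of the day (1.34, FDR 0.0809) and with batch 2 mice only (1.18, FDR 0.288), while Egr2 was called in each of these fits. The 2 called genes compare with 12.7% of all genes called higher, and 0 members were called lower, against 4.86%. Without overlap 1 member was higher, against 15% of all genes, and 0 were lower, against 14%.

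Mouse 4 of rAAV-OVA at 28 d, of batch 2, had the highest level of its group in 9 of the 10 genes and the lowest of Ier2. Fosb measured 10.2, 13.9, 8.64 and 47.2 CPM in rAAV-OVA and 19.2, 17.4, 17.2 and 11.1 CPM in rAAV-control. Mouse 4 alone was above the controls, and the Log2FC of 0.32 ± 0.31 became -0.40 without it. Egr4 was 12.2, 12.01, 15.8 and 64.2 CPM against 29.7, 25.4, 32.9 and 18.8 CPM, so 3 mice were below all controls and mouse 4 above them. Its Log2FC was -0.07 ± 0.33 with all mice and -1.01 (FDR 0.0137), which was called, without mouse 4. Arc ran from 60.4 to 203 CPM against 114 to 253 CPM (-0.62 ± 0.31, FDR 0.121) and was called without mouse 4 of rAAV-control (-0.82) or mouse 3 of rAAV-OVA (-0.88). Npas4 ran from 4.52 to 11.1 CPM against 5.58 to 16.1 CPM (-0.69 ± 0.51, FDR 0.304). In this mouse the summed level of 8 interneuron markers was 1813.3 CPM, against at most 708.3 CPM in the other 3 of its group, and the 4 T cell markers summed to 36.4 CPM against 314.5 to 729.2 CPM. The interneuron sum rested on Gad1, Gad2 and Slc32a1, which reached 692, 630.1 and 256 CPM in this group against at most 357, 182 and 65.2 CPM in rAAV-control. The other 5 markers did not rise in the group, and Cck was called lower (Log2FC -1.22). The part of these markers in the values of this mouse was not tested.

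Levels of most of the genes went together between mice of the same group. Over 31 mice, deviations of log2 CPM from the group mean gave r = 0.94 between Fos and Junb and between Fos and Egr1, 0.93 with Nr4a1, 0.92 with Arc, 0.90 with Egr4 and 0.85 with Egr2. Each of these had a 2-sided permutation p of 1e-05, the smallest that 100000 permutations within groups can give, and an adjusted p of 1.5e-05 over the 9 relations computed. Spearman's rho was 0.94 with Junb and Egr1, 0.93 with Nr4a1, 0.92 with Egr4, 0.91 with Arc and 0.89 with Egr2, with the same permutation p and adjusted p. Fosb (r = 0.72, permutation p = 0.00027, adjusted 0.00035, and rho = 0.72, p = 0.00017, adjusted 0.00022) and Npas4 (r = 0.65, permutation p = 0.00074, adjusted 0.00083, and rho = 0.71, p = 0.00036, adjusted 0.0004) followed Fos less closely. Ier2 had r = -0.05 (permutation p = 0.87, adjusted 0.87) and rho = 0.18 (p = 0.41, adjusted 0.41). Without the 2 mice farthest from the median of Fos, mouse 4 of either vector at 28 d, r was 0.92 with Junb, Egr1, Nr4a1 and Egr4, 0.91 with Arc, 0.85 with Egr2, 0.63 with Fosb, 0.60 with Npas4 and 0.20 with Ier2. The permutations moved mice within groups but across batches, so a level shared within a batch can enter the r and p over 31 mice. Among the 23 mice of batch 1, r with Fos was 0.92 for Junb and Egr1, 0.94 for Egr4, 0.89 for Nr4a1, 0.88 for Arc, 0.87 for Egr2, 0.60 for Fosb, 0.57 for Npas4 and 0.38 for Ier2.

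**Figure D5:**
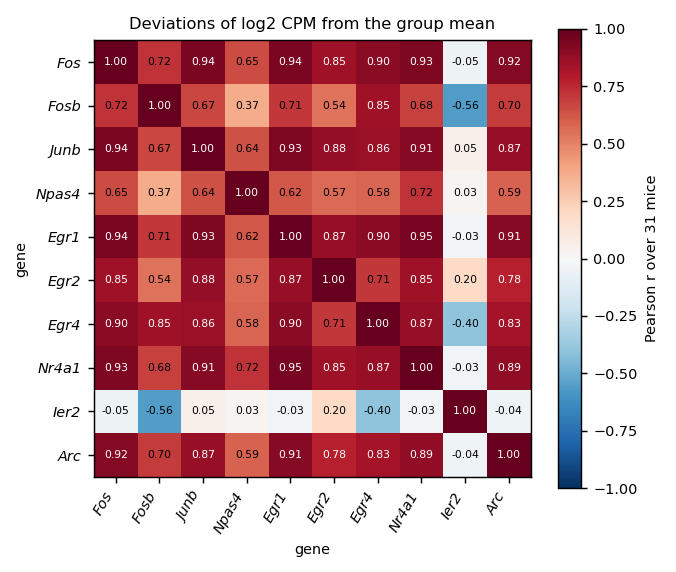
Pearson r between the 10 genes over deviations of log2 CPM from the group mean in 31 mice. Of the 45 pairs, the 36 without Ier2 run from 0.37 to 0.95, and those with Ier2 from -0.56 to 0.20.

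Outside the 10 members, which were left out of the search and were often closer to each other, the genes most like each member in these deviations by Pearson r over 31 mice are given as a description. Vgf (0.86), which encodes a secreted neuropeptide precursor, Slc25a25 (0.86) and Rundc1 (0.83) were nearest to Fosb. Zbtb12 was among the 3 nearest to Arc (0.90), Junb (0.84), Fos (0.81), Egr1 (0.81) and Nr4a1 (0.77). Midn, an immediate early gene, was among those of Egr1 (0.80), Arc (0.80) and Junb (0.79), with Phf13 for Fos (0.83) and Junb (0.79). The others were Bcorl1 for Fos (0.80), Sf3b2 for Egr1 (0.80), Mex3d for Arc (0.83), and Polr3d (0.81) and Gcc1 (0.78) for Nr4a1. Nab2 (0.83), which encodes a corepressor that binds EGR proteins, was near Egr2 with Ints6 (0.89) and Arid4a (0.83). Egr4 had Srgap1 (0.86), Dlx5 (0.84) and Htr1b (0.83), and Npas4 had Cdh10 (0.72), Nmt2 (0.68) and 5330413P13Rik (0.67). Ier2 went with other genes than Fos did, among them Ets1 (0.90), a transcription factor of lymphocytes and endothelium, and Sigirr (0.89).

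Of 9 tested AP-1, EGR and NR4A relatives, 4 were called higher at 5 d (Fosl2, Atf3, Batf and Maff), 0 lower, and 5 did not pass, with a median Log2FC of 0.54. Across all genes 9.56% were called higher and 4.67% lower at 5 d, 9.36% and 0.588% at 8 d, and 12.7% and 4.86% at 28 d. Fosl2, another AP-1 subunit, rose from 50.3 ± 10.2 to 131 ± 14.1 CPM (SD, n = 4 per group, Log2FC 1.49 ± 0.16, FDR 3.11e-06) and was not called at 8 d (0.26) or 28 d (0.16). Atf3, a stress-induced factor, rose by 2.59 ± 0.42 (FDR 0.000115) and stayed called at 8 d (2.19) and 28 d (2.01), as did Maff (2.83 at 5 d, 1.61 at 8 d and 1.40 at 28 d). At 8 d 3 of the 9 were called higher, and at 28 d 3 were higher and 2 lower.

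Of 32 other immediate early genes, 14 were called higher at 5 d and 0 lower (all genes 9.56% and 4.67%), with a median Log2FC of 0.62. Trib1 (1.15 ± 0.17, FDR 4.01e-05), Csrnp1 (1.31 ± 0.19, FDR 4.61e-05) and Ccn1 (2.06 ± 0.36, FDR 0.000212), which encodes a matrix protein, had the lowest FDR, and none of these 3 was called at 8 or 28 d. At 8 d 2 of the 32 were called higher. At 28 d 5 were higher and 4 lower, the former near the share of all genes (12.7%). Among 20 activity-dependent effectors, which act after the early factors, 8 were called higher at 5 d (median 0.70, against 9.56% of all genes), 1 at 8 d and 3 at 28 d, when 7 were called lower (12.7% and 4.86% of all genes). Among the 3 at 28 d, Penk ran from 16.2 to 668 CPM in rAAV-OVA (mean 180.6, SD 325) and Tac1 from 2.57 to 67.8 CPM (mean 18.96, SD 32.6), so that the SD exceeded the mean in both. For each gene 1 mouse carried the mean, and the remaining rAAV-OVA mice lay below all rAAV-control mice (24.5 to 27 CPM for Penk and 3.73 to 6.96 CPM for Tac1). Inhba, the activin subunit, rose from 7.38 ± 2.27 to 79.2 ± 32.5 CPM (3.58 ± 0.42, FDR 5.76e-06) and Nptx2, a synaptic pentraxin, from 34.5 ± 7.86 to 199 ± 68.7 CPM (2.38 ± 0.29, FDR 8.69e-06). Neither was called at 8 d (0.40 and 0.12) or 28 d (0.16 and -0.65). Baz1a, a chromatin remodeller subunit, rose at 5 d (2.30), 8 d (2.57) and 28 d (2.61).

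Of 33 kinases, channels and transcription factors upstream of the early genes, 2 were called higher and 3 lower at 5 d (median -0.21), where 9.56% and 4.67% of all genes were, 1 higher at 8 d, and 1 higher and 8 lower at 28 d (median -0.33), where 12.7% and 4.86% of all genes were. Crem, a cyclic AMP-responsive factor, rose by 1.13 ± 0.14 (FDR 9.87e-06) and the kinase gene Rps6ka3 by 0.75 ± 0.14 (FDR 0.000289), while Camkk2, which encodes a calcium-dependent kinase, fell by 0.78 (SE 0.13, FDR 0.000130).

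Markers of other cell types moved with the vectors. For comparison, 9.56% of all genes were called higher at 5 d, 9.36% at 8 d and 12.7% at 28 d. At 5 d the summed level of 8 monocyte markers was 586 to 1262 CPM in rAAV-OVA and 17 to 165 CPM in rAAV-control, and 7 of them were called higher, with the lowest FDR for Chil3 (Log2FC 4.71), Plac8 (5.53) and Ly6c2 (6.04). The 8 microglia markers summed to 1549 to 1592 CPM against 569.9 to 984 CPM, with 5 called higher, among them Aif1 (1.67) and Csf1r (0.73), while P2ry12 measured 33.9 against 49.3 CPM (Log2FC -0.65 ± 0.19, edgeR FDR 0.0131, under the limit on Log2FC). Of 10 T cell markers 4 were in the table, all called higher (Lck by 3.33, the coreceptor gene Cd8a by 5.44 and the granzyme gene Gzmb by 6.79 at 5 d were lowest in FDR), and they summed to 142 to 205 CPM against 1.97 to 5.34 CPM at 5 d, to 196 to 629 CPM against 4.81 to 47.7 CPM at 8 d, and to 36.4 to 729 CPM against 1.60 to 3.35 CPM at 28 d. At 28 d, when Egr2 and Ier2 were called, 7 of 8 monocyte markers and 7 of 8 microglia markers were called higher, the former summing to 81.6 to 1574 CPM against 9.11 to 21.1 CPM and the latter to 638 to 2389 CPM against 443 to 506.5 CPM. Of these 20 markers, 1 monocyte marker was at 0 in all rAAV-control mice of 28 d. The part of these cells in the values of the 10 genes was not tested.

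Neuron markers were called lower at 28 d in 5 of 10 cases and at 5 d in none. For comparison, 4.86% of all genes were called lower at 28 d, and 4.67% lower and 9.56% higher at 5 d. A single called gene is not read as a change of its list. At 5 d they summed to 5993 to 6676 CPM in rAAV-OVA and to 7649 to 9432 CPM in rAAV-control, with values from -0.66 (Slc17a7) to 0.25 (Nefm) for single markers (Syt1 -0.46 and Stmn2 -0.33, both at an FDR under 0.05 and under the limit on Log2FC). At 28 d the sums were 3179 to 6632 CPM against 7401 to 8520 CPM. At 5 d 1 of 6 CA1 markers (Fibcd1, Log2FC -1.31) and 2 of 5 CA3 markers (Cpne4, -0.90, and Iyd, -0.82) were called lower. Of 8 dentate granule markers 2 were lower (Tdo2, -3.09, and Lct, -1.84) and 1 higher (Pdzd2, 1.15), and of 8 interneuron markers 2 were lower (Pvalb, -0.96, and Cck, -0.74). In the same comparison 1 of 8 astrocyte markers (Gja1, -0.91), 1 of 8 endothelial markers (Slco1a4, -0.78) and 4 of 8 oligodendrocyte markers (among them Mog, -1.05, and Cnp, -0.81) were called lower. The 6 choroid plexus markers were all called lower (among them Ttr, -5.43, Folr1, -3.99, and Kcnj13, -4.42), summing to 42.4 to 131 CPM in rAAV-OVA and to 142.1, 3789, 107 and 40.6 CPM in rAAV-control, where 3 of the 4 mice lay near the rAAV-OVA level. The part of these changes in the members' values was not tested.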

How the data were processed

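RNA of the left hippocampus of 31 mice was sequenced as paired-end mRNA libraries. The authors trimmed reads with fastp, quantified them against GENCODE M29 with Salmon 1.8.0, summed transcripts to genes with tximeta and used DESeq2 1.36.0. They deposited expected counts as whole numbers, without normalization, and kept genes that reached 15 counts in 15 or more mice. Both deposited tables hold the same values (0 cells differ), and 0 columns were left unused. Their build differs from that of the promoter sequences, so no coordinate was carried over.

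Counts were analysed with edgeR 4.0.16 in R 4.3.3 (TMM, robust quasi-likelihood F-test) in 1 fit of the 8 groups, from the labels, with 2 surrogate variables (sva 3.50.0). FDR values cover all 15648 genes. Log ratios were tested with limma 3.58.1 on log2 CPM (prior count 2). The scripts were tested on simulated data. Alternatives were DESeq2 1.42.0, limma voom, other covariates, filters, batches, and leaving out each mouse. Groups of 3 or 4 mice limit the precision. Each library is a mouse, and p-values measure the spread between mice. Exon lengths were from GENCODE M21.

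The 10 members and the gene lists were chosen with earlier results of these data known. Beyond the members, the text names from each list the 3 genes with the lowest FDR at 5 d among those called, or 2 where none was, and the 3 genes most like each member, except for a few genes that are not reported here. Batf, Penk, Tac1, P2ry12, Slc17a7, Nefm, Gad1, Gad2 and Slc32a1 were named after their values were seen.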

Additional observations from a re-analysis of the deposited data

Results flagged for a closer look

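In 9 of 70 sets of 4 mice, the highest or lowest mouse stood apart from the nearest other by more than Dixon's 95% limit on the share of the range. That limit assumes normally distributed values and was applied to CPM without taking logs, so no chance rate is set beside the 9. Mouse 4 of rAAV-OVA at 5 d was the highest for Fos (0.872 of the range), Egr1 (0.843), Egr4 (0.910) and Nr4a1 (0.850). Mouse 4 of rAAV-OVA at 28 d was the highest for Fosb (0.865) and Egr4 (0.928), and mouse 1 of rAAV-OVA at 8 d for Fos (0.934) and Egr4 (0.901). Egr2 was lowest in mouse 3 of rAAV-control at 5 d (0.838). Most of these genes correlated between mice, so these values are not independent.

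The response at 5 d differed from that at another time in 4 interaction tests of edgeR. It was larger than at 2 d for Fos (1.82 on the log2 scale) and Fosb (1.68), and larger than at 28 d for Fosb (1.47) and Npas4 (2.70).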

How the results depend on the processing

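No paired analysis was possible because the replicate numbers were given in accession order and only name the mice. Of 921 values under alternatives, 853 were counted as unchanged, meaning the same call and no reversal for a single value, or a count within 1.5 times. Another 12 lost a call, 18 gained a call, 37 counts moved further and 1 value reversed. The unchanged include 72 changes of sign, of differences that were not called in either fit and not above their SE in both, and the r of Fos with Ier2, which was -0.05 and became 0.08 after removing the surrogate variables and 0.38 in batch 1. The count of 10 genes called at 5 d was 3, 4 without surrogate variables, with at least 15 counts in every mouse or with batch 1 mice only, and 5 with the batch label as covariate or with only the mice of the day, and it stayed at 3 without any 1 mouse. At 8 d the count of 1 became 2 with DESeq2, 0 without surrogate variables or with only the mice of the day, and 3 with the batch label or with batch 1 mice only, and it ran from 0 to 2 when a mouse was left out. At 28 d the count of 2 became 1 with limma voom, with only the mice of the day and with batch 2 mice only, and it ran from 1 to 3 when a mouse was left out. The response differed between 5 d and 2 d for 4 genes without surrogate variables, with the batch label or with at least 15 counts in every mouse, and for 2 to 4 when a mouse was left out (4 without mouse 4 of rAAV-OVA at 2 d). Between 5 d and 8 d it differed for 3 genes with DESeq2, for 1 with the filter on every mouse or with batch 1 mice only, and for 0 to 1 when a mouse was left out. Between 5 d and 28 d it differed for 1 gene with limma voom, without surrogate variables or with the batch label, for 0 with batch 1 mice only, and for 0 to 3 when a mouse was left out. With Arc in place of Fos as the reference, 3 of 9 genes were called in place of 6, and leaving out a mouse of 5 d gave 5 to 6. The Log2FC of Fosb at 28 d ran from -0.40 to 0.55 when a mouse was left out, the lowest being without mouse 4 of rAAV-OVA. The mean of the within-batch differences, added after the data were seen, gave 0 calls at 2 d and 2 at 28 d. No share of all genes is given for the counts under other tools, covariates, filters or sets of mice. The causes of these differences were not tested. The part of depth in the precision was not tested.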
